A study of Mus musculus with 2 samples.

Results

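The genes described here are 2 keratins of hepatocytes (Krt8 and Krt18) and 5 genes of bile duct cells (Krt19, Sox9, Spp1, Epcam and Prom1) in mouse liver RNA. They were taken by symbol from a table of 15348 genes, and all 7 were present. The symbols were chosen with levels of both groups known, so the difference between the groups is a description of these libraries and not a test.

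Both groups were livers of female NOG-TKm30 mice aged 16 weeks. NOG mice are severely immunodeficient and lack mature lymphocytes, and the control animals carry the same background and transgene as the treated ones. The transgene encodes clone 30 of a mutated herpes simplex virus thymidine kinase (HSVtk) and is driven by the enhancer and promoter of mouse transthyretin, a gene expressed mainly in hepatocytes. The treated mice received ortho-toluidine (OTD), an aromatic amine used in dye making, at 0.6% in the first week and at 0.3% over the next 3 weeks, 4 weeks in total, and the controls received 0%. Livers of 3 control mice were mixed into 1 library and livers of 5 OTD mice into another, so neither group had replicates and no value below has a check against the spread between mice. One protocol label names C57BL mice, while NOG-TKm30 is given as the strain, in the sample titles and in the series design. The table's column names hold the word Wild, which no label explains, and the columns were assigned by their words for control and OTD.

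Keratins are the intermediate filament proteins of epithelial cells, and a filament is built from type II and type I keratins in equal amounts. Hepatocytes make the type II keratin 8 and the type I keratin 18 and no other keratin pair in quantity, whereas bile duct cells (cholangiocytes) add keratins 7 and 19. When liver is injured, hepatocytes commonly raise keratins 8 and 18, and duct-like cells carrying Krt19, Sox9, Epcam, Spp1 and Prom1 may spread into the lobule, which is known as a ductular reaction.

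Krt8 and Krt18 are neighbours on chromosome 15 of GRCm38 (mm10), Krt8 at 101996698 to 102004482 on the minus strand and Krt18 at 102028180 to 102032027 on the plus strand. Their starts lie 23.7 kb apart and the genes are read away from each other. On chromosome 11, Krt19 lies at 100140810 to 100148665 and Sox9 at 112782224 to 112787760. On chromosome 5, Prom1 lies at 43993620 to 44102032 and Spp1 at 104435118 to 104441050. Epcam lies on chromosome 17 at 87635979 to 87651129. Each of the 7 encodes a protein.

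The start regions of the 3 genes with the highest ratios are shown because Krt8 and Krt18 had similar ratios and Prom1 had the highest ratio of the duct genes. Each holds the 250 bases before and the 30 after a RefSeq start (GRCm38.p6), on the gene's own strand, 5′ to 3′. Krt8 is chr15:102004313-102004592 (minus), Krt18 is chr15:102027966-102028245 (plus), and Prom1 is chr5:44101707-44101986 (minus), the outer of its 2 RefSeq starts. These RefSeq starts lie inside the gene spans given above, which come from GENCODE. The Prom1 window lies wholly inside its span, so positions below refer to the RefSeq starts only. Capitals mark any match, on either strand, to 6 motifs. The TATA box was searched as TATAAA and the core of the xenobiotic response element as GCGTG. The AP-1 site was searched as TGANTCA. The core of the antioxidant response element was searched as TGACNNNGC. The GC box was searched as GGGCGG and the CCAAT box by its name.
Krt8: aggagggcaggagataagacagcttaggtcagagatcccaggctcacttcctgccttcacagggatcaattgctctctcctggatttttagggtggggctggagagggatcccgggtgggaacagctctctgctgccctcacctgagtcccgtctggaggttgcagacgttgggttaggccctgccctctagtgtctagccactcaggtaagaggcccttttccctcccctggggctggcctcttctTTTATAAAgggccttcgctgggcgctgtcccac
Krt18: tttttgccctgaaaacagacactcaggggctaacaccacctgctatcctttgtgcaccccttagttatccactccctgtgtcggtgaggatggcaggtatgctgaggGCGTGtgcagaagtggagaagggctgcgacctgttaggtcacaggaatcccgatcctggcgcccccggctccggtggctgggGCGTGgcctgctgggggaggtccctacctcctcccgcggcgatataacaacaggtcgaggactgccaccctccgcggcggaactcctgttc
Prom1: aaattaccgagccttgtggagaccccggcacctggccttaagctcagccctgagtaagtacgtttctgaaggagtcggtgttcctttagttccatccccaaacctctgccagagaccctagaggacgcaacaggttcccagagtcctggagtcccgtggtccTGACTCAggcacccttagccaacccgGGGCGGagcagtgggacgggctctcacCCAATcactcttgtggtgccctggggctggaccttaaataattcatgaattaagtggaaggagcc

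Krt8 and Krt18 shared none of the 6 motifs in these windows. Krt8 held TATAAA beginning 1 base before its RefSeq start, overlapped by a match on the other strand. That motif was found in 13.1% of 32851 windows of this length. Krt18 held GCGTG at 143 and 61 bases before its start, and 30.8% of windows hold it. Prom1 held TGACTCA, which fits the AP-1 pattern (7.46% of windows), 88 bases before the start, GGGCGG (34.7%) 62 bases before it and CCAAT (36.1%) 35 bases before it. At the inner Prom1 start the window held TGAATCA, also an AP-1 match, and 1 antioxidant response element core (11.5%). RefSeq windows were matched for 5 of the 7 genes, and those of Spp1 and Epcam are not printed because their intervals included a ratio of 1. The matches are letters in a window and were not tested as binding sites.

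Levels are the deposited scaled CPM, read counts set to a common library total with 1 adjusting factor per library. The control library held 13569189 reads and the OTD library 14685193 over the listed genes, and a single read adds 0.0751 to a control level and 0.0668 to an OTD level. A ratio is the OTD level over the control level, with a 95% exact Clopper-Pearson interval on the split of reads, which covers counting error only. A log2 ratio uses a pseudocount of 1 and understates differences of low genes. Albumin (Alb), the main secreted protein of hepatocytes, reached 81661 in the control pool and 69694 in the OTD pool, so the liver label was met in both libraries. The ribosomal RNA precursor Rn45s made up 1.47% of reads in control and 2.66% in OTD.

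Krt8, which encodes the type II keratin of hepatocytes, stood at 119 in the control pool and 191 in the OTD pool. That is 1581 and 2858 reads. The ratio was 1.61 (1.51 to 1.71), and 71 of 7602 genes with a mean level of at least 10 had a higher log2 ratio than its 0.68. Krt18, its type I partner, stood at 81.4 in control and 128 in OTD, from 1083 and 1912 reads. Its ratio was 1.57 (1.46 to 1.69) and its log2 ratio 0.64, with 80 genes above it. Both keratins were thus higher in the OTD pool by about the same factor, with intervals that overlap each other and lie below a ratio of 2.

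**Figure D1:**
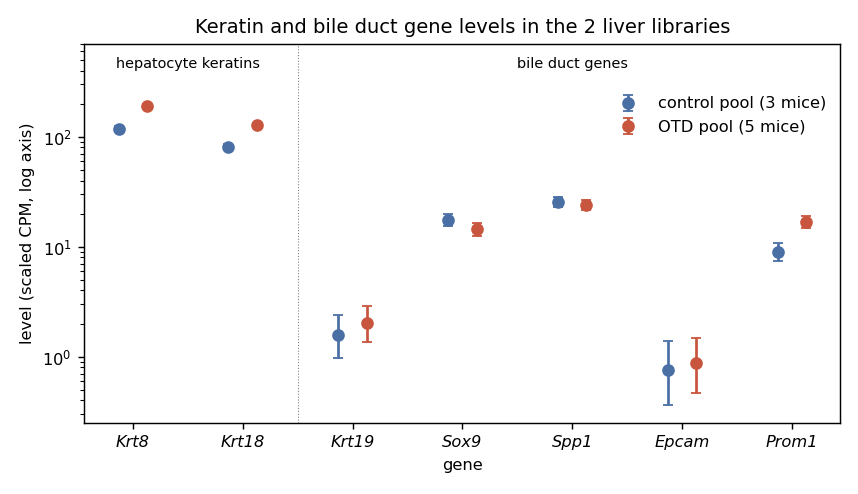
Level of each gene (scaled CPM, log axis) in the control pool of 3 mice and the OTD pool of 5 mice, 1 library each, with bars for 95% exact counting intervals. Krt8, Krt18 and Prom1 stand higher in the OTD pool with bars that do not overlap, whereas the bars of Krt19, Sox9, Spp1 and Epcam overlap between the pools.

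Because the 2 keratins assemble together, their ratio within each library was computed, which no scaling can change. Per kilobase of the longest transcript, Krt18 stood at 0.933 times Krt8 in control (0.863 to 1.01) and at 0.912 times Krt8 in OTD (0.860 to 0.966). The OTD value over the control value was 0.977, with an exact conditional interval of 0.886 to 1.08. On this measure the transcripts of the pair stood near 1 to 1 in both libraries, although the OTD interval ended below 1. No shift between the libraries was detectable at this depth. The distance of each ratio from 1 depends on the lengths used, which the counting interval does not cover. Undivided by length, the ratios of reads were 0.685 and 0.669.

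Krt8 is less certain than its interval. Of its 50-base stretches, 29.7% also occur in other annotated transcripts, chiefly the pseudogene Krt8-ps, beside 0.720% for Krt18. How reads were shared between copies is not given in the sources used here. An antisense transcript, Gm36026, also overlaps 271 bases of Krt8. Krt19, Sox9, Epcam and Prom1 shared no such stretch with another gene, and Spp1 shared 9.05% with the overlapping model Gm42793.

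Among the duct genes, ratios lay on both sides of 1. Krt19, the type I keratin that marks cholangiocytes, stood at 1.58 in control and 2.0 in OTD, from 21 and 30 reads. Its ratio was 1.27 (0.703 to 2.33), so neither no difference nor one of the size of Krt8 lay outside the interval. Epcam, an epithelial adhesion molecule of duct and progenitor cells, stood at 0.751 in control and 0.868 in OTD, from 10 and 13 reads. Its ratio of 1.16 had an interval of 0.468 to 2.94. For both genes a difference was not detectable at this depth.

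Sox9, the transcription factor of duct cells and of some periportal hepatocytes, stood at 17.5 in control and 14.4 in OTD, from 233 and 216 reads. Its ratio was 0.824 (0.682 to 0.996), with an interval that ends just below 1. Under 3 of 4 other scalings the interval included 1, for example 0.709 to 1.04 with both libraries set to the same total. Spp1, which encodes the secreted matrix protein osteopontin, stood at 25.5 in control and 24.0 in OTD, from 340 and 360 reads. Its ratio was 0.941 (0.809 to 1.10), and the interval does not reach the ratios of Krt8 and Krt18.

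Prom1, which encodes the membrane protein prominin-1 (CD133) of duct and progenitor cells, stood at 9.02 in control and 16.8 in OTD, from 120 and 251 reads. Its ratio of 1.86 (1.49 to 2.33) was the highest of the 7 genes. Of the 7602 genes, 39 had a higher log2 ratio than its 0.83. Prom1 is among the 7602 only through its OTD level and was chosen on this contrast, so that rank is a description. Relative to Sox9 in the same library, Prom1 had 0.515 reads per Sox9 read in control and 1.16 in OTD. That is a change of 2.26 (1.68 to 3.03), which sets the highest ratio of the 7 genes against the lowest. Relative to Krt8 the change was 1.16 (0.919 to 1.46) and relative to Krt19 it was 1.46 (0.762 to 2.77). Both of these intervals include 1. Other annotated models, Gm42716 on the same strand and Gm16401 on the opposite strand, overlap Prom1.

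**Figure D2:**
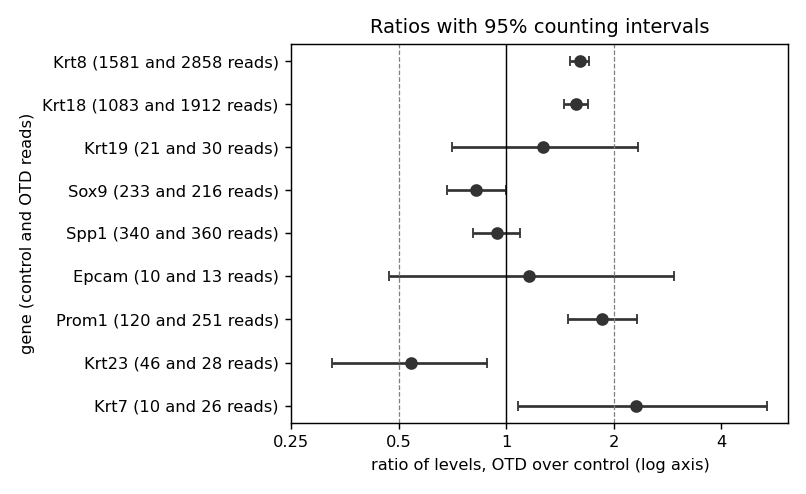
Ratio of levels, OTD over control (log axis), with 95% exact counting intervals and the control and OTD reads behind each. The solid line marks a ratio of 1 and the dashed lines 2-fold. Krt8, Krt18 and Prom1 lie above 1, as does Krt7 from 10 and 26 reads. Krt23 lies below 1, and Sox9 does so narrowly and not under 3 of 4 other scalings. The wide intervals of Krt19, Epcam and Krt7 come from 10 to 30 reads a library, and those of Krt19 and Epcam include 1.

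By role, the 2 hepatocyte keratins summed to 200 in control and 319 in OTD, a ratio of 1.59 (1.52 to 1.67). The 5 duct genes summed to 54.4 and 58.1, a ratio of 1.07 (0.967 to 1.18). Without Prom1, a choice made after its value was seen, the other 4 summed to 45.4 and 41.3, a ratio of 0.911 (0.813 to 1.02). In whole liver, more or fewer cells of a type and more or less RNA in each cell cannot be told apart.

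Of the 7 genes, 5 had a mean level of at least 10 and Krt19 and Epcam did not. Prom1 reached that mean only through its OTD level of 16.8, since its control level was 9.02. No gene of the 5 was 2-fold higher or lower, beside 0.210% of all 7602 genes in each direction. Krt8, Krt18 and Prom1 were at least 1.5-fold higher on the log2 scale, where 1.51% of all genes were, and none was 1.5-fold lower, where 0.908% were. Counting intervals lay above 1 for those 3 genes (18.6% of all genes) and, with the deposited scaling but not under 3 of 4 others, below 1 for Sox9 (19.6%). The genes were chosen on this contrast, so these shares are a description. The median log2 ratio of all 7 was 0.22, and that of all listed genes 0.0045. The former is the value of Krt19, from 21 and 30 reads and with an interval that includes a ratio of 1.

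**Figure D3:**
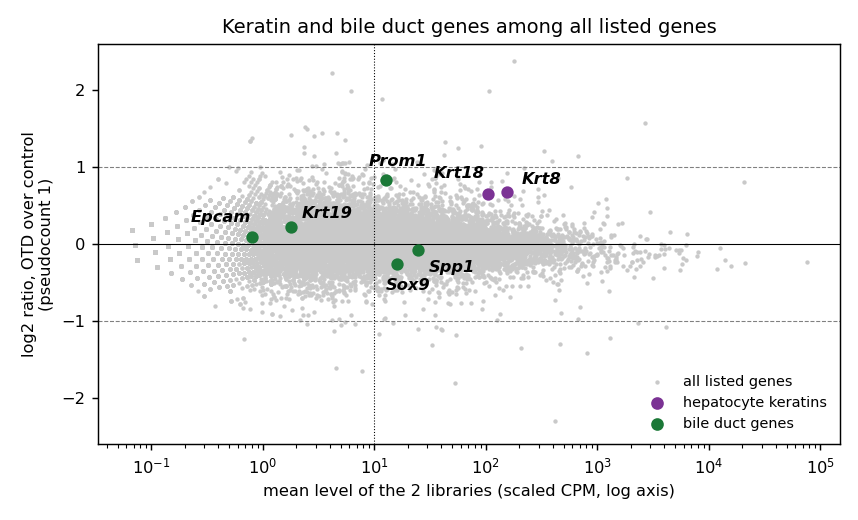
Log2 ratio of OTD over control (pseudocount 1) against the mean level of the 2 libraries (log axis) for all listed genes (grey), with the hepatocyte keratins in purple and the duct genes in green. The dotted line marks a mean of 10, the dashed lines 2-fold, and 3 genes lie outside the axis. Krt8, Krt18 and Prom1 sit at the upper edge of the genes of their level and below the 2-fold line.

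Compared per kilobase of the longest transcript, Krt8 had the highest level of the 7 genes in both libraries, 60.7 in control and 97.5 in OTD. Krt18 followed with 56.6 and 88.9, and the intervals of the 2 keratins overlapped in control but not in OTD. Spp1 came next with 16.9 and 16.0. Sox9 with 4.23 stood above Prom1 with 2.20 in control, whereas in OTD Prom1 with 4.10 and Sox9 with 3.49 had overlapping intervals. Over all merged exons, which for Prom1 are 7.17 kb in place of 4.09 kb, Prom1 stood below Sox9 in both libraries (1.26 and 2.34). Krt19 with 1.00 and 1.27 and Epcam with 0.368 and 0.426 were the lowest. The defining duct keratin thus stood at 0.0165 times Krt8 per kilobase in control and 0.0130 in OTD.

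The table listed 7 keratin genes, 4 of them outside the set described so far. Krt7, the type II keratin of bile ducts, stood at 0.751 in control and 1.74 in OTD, from 10 and 26 reads, a ratio of 2.31 (1.08 to 5.37). Krt23, a type I keratin of duct cells and stressed hepatocytes, stood at 3.46 and 1.87, from 46 and 28 reads, a ratio of 0.541 (0.326 to 0.884). Krt7 and Krt19 thus had ratios above 1, that of Krt19 with an interval that includes 1, and Krt23 had a ratio below it. All of them stood at levels far below Krt8 and Krt18. Krt10 had 9 and 8 reads and Krt80 had 3 and 0.

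Across a wider list of 35 cholangiocyte markers, 33 were listed and 13 had a mean of at least 10. Of these 13, 6 had a log2 ratio above 0 and 7 below, 2 were at least 1.5-fold higher and none 1.5-fold lower. The median over all 33 was 0.012. The ratio with its interval follows each pair of levels. The 2 higher ones were Prom1, chosen on this contrast and counted only through its OTD level, and Cdh1. Cdh1 encodes the epithelial adhesion protein E-cadherin, which hepatocytes also express. Its control level was 31.1 and its OTD level 53.4 (1.72, 1.52 to 1.94). Pkd2, the calcium channel of the primary cilium, stood at 39.4 and 31.2 (0.792, 0.698 to 0.899). Clu, the secreted chaperone clusterin and the most abundant of the list, had 1296 and 1146 (0.885, 0.866 to 0.904). Some duct markers were near the limit of detection, with 2 and 3 reads for the chloride channel gene Cftr and 0 and 3 for Cldn4. Others had more reads, such as Slc10a2 with 44 and 95, described under the other observations. Of all 33 genes, 5 had a counting interval above 1 and 5 had one below it, beside 12.4% and 11.4% of all listed genes.

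Of 21 genes of the ductular reaction and progenitor state, 15 were listed and 1 had a mean of at least 10. That gene was Vim, the filament gene of mesenchymal cells, at 18.9 in control and 16.6 in OTD (0.882, 0.737 to 1.06). The median over the 15 was -0.095, with 7 above 0. The cell surface receptor gene Cd44 had 5.63 and 5.21, and the fetal gene Afp had 4 and 7 reads.

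Keratin filaments end at desmosomes, and the plakins tie them to membranes and other filaments. Of 15 desmosome and plakin genes, 11 had a mean of at least 10, with 7 above 0 and 4 below, and none was past 1.5-fold in either direction. The median over all 15 was 0.098. Dsp, which encodes desmoplakin, stood at 132 in control and 170 in OTD (1.29, 1.21 to 1.37). Eppk1, the keratin-binding epiplakin of hepatocytes, stood at 70.8 and 90.1 (1.27, 1.17 to 1.38), and Dsg2, a desmosomal cadherin, at 141 and 156 (1.10, 1.04 to 1.17). Macf1, a linker to microtubules and actin and the most abundant of the list, stood at 236 and 219. Among other filament genes only Lmna, the nuclear lamin A/C gene, and Vim had a mean of at least 10, and Lmna stood at 34.8 and 45.0 (1.29, 1.15 to 1.46).

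Mallory-Denk bodies are hepatocyte inclusions of keratins 8 and 18 with ubiquitin and the autophagy adaptor p62. Of 21 genes for their components and for enzymes that modify keratins, 19 had a mean of at least 10, with 10 above 0, 9 below and none past 1.5-fold, and the median was 0.0044. Tgm2, the transglutaminase that crosslinks keratins, stood at 102 in control and 129 in OTD (1.27, 1.18 to 1.36). Ogt, which adds sugar residues to keratins among other proteins, had a ratio of 1.25 (1.12 to 1.39). The chaperone gene Hspa8 stood at 1434 and 1177 (0.821, 0.804 to 0.838). Members of this list thus lay on both sides of 1.

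Notch, Hippo and TGF-beta signalling direct duct cell fate and act on Sox9 and Spp1. Of 27 Notch genes, 12 had a mean of at least 10, 8 above 0 and none past 1.5-fold, with a median over all 27 of 0.023. The receptor gene Notch2 had a ratio of 1.02 (0.95 to 1.09), and Psen2, a subunit of the protease that releases the active receptor, stood at 134 and 160 (1.20, 1.13 to 1.28). Dtx4, a ubiquitin ligase of the pathway, had a ratio of 1.18 and the receptor-cleaving protease gene Adam10 one of 0.888.

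Of 24 listed Hippo and YAP genes, 17 had a mean of at least 10, with 6 above 0, 11 below and none past 1.5-fold. The transcriptional coactivator gene Yap1 stood at 87.1 in control and 90.8 in OTD (1.04, 0.964 to 1.13). The kinase adaptor genes Sav1 and Mob1b had ratios of 0.743 (0.614 to 0.899) and 0.796 (0.716 to 0.886). Of 15 TGF-beta genes, 12 had a mean of at least 10, with 5 above 0 and 7 below. The feedback inhibitor Smad7 stood at 42.4 and 28.9 (0.681, 0.599 to 0.773), Skil, another inhibitor, at 49.7 and 34.5 (0.693, 0.616 to 0.779), and the receptor gene Tgfbr1 at 44.8 and 32.9 (0.734, 0.650 to 0.828). Ski, the most abundant of the list, stood at 64.5 and 72.9 (1.13, 1.03 to 1.24), and Tgfbr2 had a ratio of 1.19 (1.03 to 1.37). Of the 12, 2 had a counting interval above 1 (18.6% of all 7602 genes) and 3 had one below it (19.6%). On the log2 scale used for counting, none of the 12 was past 1.5-fold. The list medians over all listed genes were -0.076 for Hippo and YAP and -0.12 for TGF-beta.

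**Figure D4:**
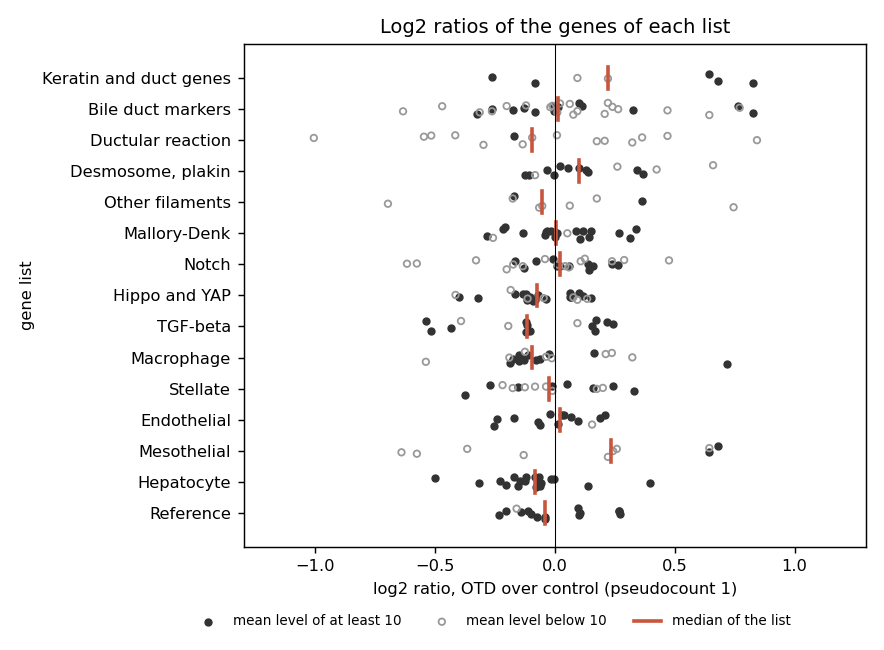
Log2 ratio of OTD over control (pseudocount 1) for each listed gene of 15 lists, filled where the mean level is at least 10 and open below, with the median over all listed genes as a bar. The medians lie between -0.12 (TGF-beta) and 0.23 (mesothelial, a list that holds Krt8, Krt18 and Krt19).

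Other cells of the liver also express some of these genes, and their markers were read beside them. Of 19 hepatocyte markers, all with a mean of at least 10, 2 were above 0 (48.4% of all 7602 genes) and 17 below. Their median was -0.082 and their summed level 0.893 times that of control. The median was -0.027 with equal library totals and -0.0090 with totals that omit Rn45s. Hnf4a, the hepatocyte identity factor, stood at 948 and 670. Their part in the levels of Krt8 and Krt18 was not tested. Macrophages can express Spp1. Of their 20 markers, 12 had a mean of at least 10, 2 of these above 0 (48.4% of all 7602 genes) and 10 below. The sum of the 20 went from 557 to 532. The fatty acid binding gene Fabp5 was the 1 marker at least 1.5-fold higher, with 14.1 and 23.8, while Clec4f, a Kupffer cell lectin, stood at 132 and 122, and the injury-associated macrophage genes Trem2 and Gpnmb had 10 and 11 reads and 1 and 4 reads. Their part in the Spp1 level was not tested.

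Mesothelial cells of the liver capsule express simple keratins. Apart from the keratins, the markers Msln, Upk3b, Upk1b, Wt1, Lrrn4 and Gpm6a all had means below 10. Msln stood at 3.38 and 1.94 and Upk3b at 5.56 and 3.21, with intervals below 1, while Lrrn4 stood at 1.88 and 2.40 and Upk1b at 0.451 and 0.735, with intervals that include 1. Of the 7 listed markers other than Krt8, Krt18 and Krt19, which count Krt7, 3 had a log2 ratio above 0, and their summed level was 16.8 in control and 13.5 in OTD. Their part in the keratin levels was not tested. Prom1 is also expressed more in female than in male mouse liver. Among the 21 other genes of a list of female-biased genes, 9 were above 0 and the median was -0.040, with A1bg at 298 and 116 and Nipal1 at 22.0 and 38.5. Stellate and endothelial markers had medians of -0.025 over 16 genes and 0.022 over 14 genes, and genes often used as expression references one of -0.042 over 15, with Actb 1.21-fold higher.

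Within 1 Mb of the Krt8 start, 37 genes were listed, and 17 besides the 2 keratins had a mean of at least 10. Their median log2 ratio was -0.10, and 4 of the 17 were above 0 (48.4% of all 7602 genes). None was 1.5-fold higher (1.51%) or lower (0.908%). They ranged from -0.54 for Csad, a taurine synthesis enzyme, to 0.37 for Sp1, a general transcription factor. Eif4b, the nearest of them, stood at 295 and 276. Among genes with a mean below 10, named after their values were known, Krt7 had a log2 ratio of 0.64 (10 and 26 reads) and Nr4a1, an immediate early transcription factor gene, one of 0.73 (38 and 81 reads), as high as the 2 keratins.

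**Figure D5:**
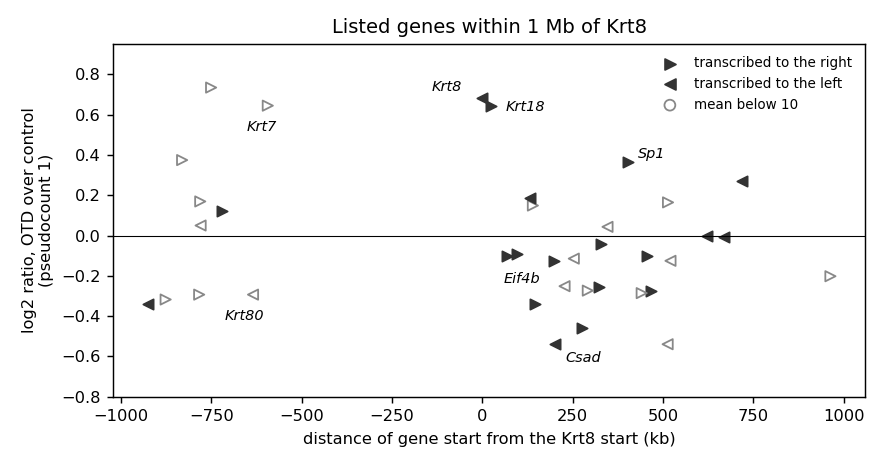
Log2 ratio of OTD over control (pseudocount 1) of the listed genes within 1 Mb of the Krt8 start, by distance in kb, with arrowheads for the direction of transcription and open symbols for a mean level below 10. Krt8 (0.68) and Krt18 (0.64) stand above the other filled symbols, which lie between -0.54 and 0.37.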

How the data were processed

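The authors deposited 1 normalized expression signal per gene and library. The submitters' processing notes name the tools Trimmomatic 0.38, RSEM, Bowtie2 and edgeR and the mm10 build without saying what each did. The gene filter, annotation and strand setting were not given in the sources used here. Every value (100%) was a whole multiple of its column's smallest value (tolerance 1e-06), so whole reads were recovered. With 1 library per group there were 0 residual degrees of freedom, so no count test could be run on the reads and no p-value is given. The columns behaved as CPM divided by 0.981 (control) and 1.02 (OTD).

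Log2 ratios used a pseudocount of 1, and genes with a mean of at least 10 were counted. The 7 genes and the 16 lists were chosen with earlier results of these data known. Up to 3 genes a list with the largest absolute log2 ratio at a mean of at least 10, and the most abundant, were named, and others were named after their values were seen. Some genes of the lists are not reported here. Gene models came from GENCODE M21 and start regions from RefSeq (GRCm38.p6). No genes were named for a like pattern, since 2 libraries give 1 ratio per gene. In simulated reads of 7602 genes at the depths of both pools, 95.3% of intervals held the true ratio. Those reads were drawn with counting error only, so this checks the calculation and says nothing on the spread between mice. Alternatives were other pseudocounts, scalings, filters, a 1.5-fold rule and gene lengths. The tools were scipy 1.17.1, numpy 2.4.6, pandas 2.3.3 and matplotlib 3.10.9 under Python 3.11.15.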

Additional observations from a re-analysis of the deposited data

How the results depend on the processing

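No paired analysis was possible because each group had 1 library, and for the same reason no replicate could be left out. The 28 ratios of the 7 genes under 4 other scalings stayed inside their counting intervals and on the same side of 1, but the interval of Sox9 included 1 under 3 of them (upper limits of 1.00, 1.04 and 1.05). Under these scalings Krt8 ranged from 1.59 to 1.69, Krt18 from 1.55 to 1.65, Prom1 from 1.84 to 1.96, Sox9 from 0.815 to 0.867 and Spp1 from 0.931 to 0.990. The scalings multiplied ratios by 0.989 to 1.05. The median log2 ratio of the 7 genes ranged from 0.052 (pseudocount of 10) to 0.64 (the 5 genes with a mean of at least 10). The counts of 16 genes 2-fold higher and 16 lower depended on the genes admitted: 8 and 9 where the mean reached 50, 39 and 25 where it reached 1, and 44 and 26 with every listed gene. The 1.5-fold rule gave 115 and 69. A pseudocount of 10 gave 11 higher and 10 lower, and equal library totals gave 20 and 14. The Krt18 to Krt8 ratio became 0.685 and 0.669 undivided by length, and merged exons gave the values of the longest transcript. Of 133 list medians under the alternatives, 19 had the other sign, among them cholangiocyte markers (-0.0045 over the 13 counted, 0.068 with equal library totals once Rn45s was left out), and 6, 3 of them of the hepatocyte list, moved by more than the typical counting error of a gene of the list. Krt19, Epcam and Krt7 are limited by depth.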

Other observations

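The genes below had a mean level under 10 and were picked once their values were known. Tnfrsf12a, the receptor for the cytokine TWEAK that drives duct and progenitor cell growth, stood at 7.59 in control and 3.27 in OTD, from 101 and 49 reads (ratio 0.431, with a counting interval of 0.300 to 0.613). Lcn2, the injury protein lipocalin-2, stood at 4.81 and 9.42, from 64 and 141 reads (1.96, 1.45 to 2.68). Lgr5, a Wnt-linked receptor gene, had 88 and 63 reads (0.637, 0.453 to 0.890), and Lama5, a laminin gene, had 135 and 110 (0.724, 0.558 to 0.939). Of the 15 listed ductular reaction genes, 1 had a counting interval above 1 and 3 had one below it. Over all 15348 listed genes the shares were 12.4% above 1 and 11.4% below it, so these counts are a description only.

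Slc10a2, the bile acid transporter of the cholangiocyte surface, had 44 and 95 reads (1.92, 1.33 to 2.81). Of the Notch genes, the target Hes1 had 110 and 78 reads (0.630, 0.466 to 0.850) and the ligand Dll1 had 89 and 60 (0.599, 0.425 to 0.841), while the ligand Jag1 had 74 and 84 (1.01, 0.730 to 1.40). Among genes of the filament network, Lmnb1, a nuclear lamin, had 36 and 78 reads (1.93, 1.28 to 2.94), Synm, a muscle and stellate cell filament gene, had 40 and 22 (0.489, 0.277 to 0.843), and the plakin gene Evpl had 12 and 30 (2.22, 1.11 to 4.77). None of these differences has a replicate check.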
